A study of Mus musculus with 9 samples.

Results

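The mitochondrial respiratory chain was examined in cell lines from mouse mammary tumours, labelled as having or lacking the Janus kinase Jak1, through the messenger RNA of its nuclear-encoded subunits. The members were the genes of a table of 24346 gene symbols whose names match the families Nduf, Sdh, Uqcr, Cox4 to Cox8 and Atp5 and whose mean over 9 libraries reached 1 FPKM (fragments counted relative to the length of a transcript and the depth of a library). The name pattern matched 84 genes, of which 79 reached the threshold. These were 35 subunits of complex I, 4 of complex II, 8 of complex III, 15 of complex IV, 15 of complex V, and 2 genes that carry an Atp5 name but are not counted as subunits here (Atp5s, a coupling factor, and Atp5sl, named after it and linked to complex I assembly). Ndufa4 and Ndufa4l2 carry complex I names and were placed in complex IV, where the NDUFA4 protein is now assigned. The members just inside the threshold were Cox6a2, with a mean of 1.58 FPKM, and Atp5s, with 4.16 FPKM. The 5 genes below it were Cox6b2 (mean 0.69 FPKM), Cox4i2 (0.13 FPKM), Cox8b (0.04 FPKM), and Cox7b2 and Cox8c, which were listed at 0 in all 9 libraries. Subunits encoded by mitochondrial DNA were not analysed here.

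The cells were lines derived from tumours of FVB/N mice that were induced by MMTV-neu, a transgene in which the promoter of mouse mammary tumour virus drives the neu (Erbb2) oncogene in the mammary gland. The 4 libraries labelled Jak1 knockout came from lines 45555, 47298, 45566B and 46295. The 5 libraries labelled Jak1 wild type came from lines 45555, 47298, 45566B, 33373 and 33377. Lines 45555, 47298 and 45566B were thus present in both states, as "Cre" and "Wt" in their titles, and were treated with puromycin. The labels name no separate cultures and give no Jak1 allele, so a p-value reflects just how far these libraries vary, and each combination of line and state has 1 library. Below, values of single libraries follow this order of lines unless the lines are named.

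The Jak1 gene was read in every library. Its level was 74.4, 27.5, 14.2 and 23.0 FPKM in the knockout-labelled libraries, against 86.7, 63.1, 16.1, 19.4 and 54.6 FPKM in the wild-type-labelled libraries. Each of the 3 paired lines had less of it in its knockout-labelled library, yet the groups overlapped widely, and the paired log2 difference was -0.52 (SE 0.27, limma with Benjamini-Hochberg adjusted p = 0.762). A gene-level FPKM does not show whether part of the gene was deleted, and "knockout" and "wild type" below mean the labelled states. The libraries held summed FPKM between 567483 and 721843, and 10823 to 11624 genes at 1 FPKM or more. Between 5.99 and 14.8% of this sum came from short noncoding RNA genes. The members' directions of change between the states are also given below after the libraries were rescaled to an equal sum without these genes. The labelled cell type was checked on 6 epithelial markers (Epcam, Cdh1, Krt8, Krt18, Krt19, Cldn4). Their summed level was 7.06, 408, 2431 and 2544 FPKM in the knockout libraries, against 6.73, 97.9, 2317, 2227 and 159.9 FPKM in the wild-type libraries. Line 45555 thus had the lowest sum in each state, with Epcam at 0.42 FPKM in knockout and 0.17 FPKM in wild type. Most of its sums was Krt19, at 4.70 and 5.37 FPKM, which was listed at 0 in both 45566B libraries and in 46295 knockout. Epcam was also low in line 47298, with 0.58 FPKM in knockout and 0.32 FPKM in wild type, and in 33377 wild type, with 2.36 FPKM. Krt8 and Krt18 were higher than Epcam in these libraries. They had 157 and 250 FPKM in 47298 knockout, 38.5 and 52.7 FPKM in 47298 wild type, and 74.9 and 74.8 FPKM in 33377 wild type. In both 45566B libraries, 46295 knockout and 33373 wild type they were at least 447 and 721 FPKM. Cdh1 and Cldn4 were at most 0.28 FPKM in either 47298 library, and 7.02 and 0.77 FPKM in 33377 wild type.

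The respiratory chain moves electrons from NADH and succinate to oxygen and uses the energy to pump protons across the inner mitochondrial membrane. Complex I oxidises NADH, complex II oxidises succinate and is also the succinate dehydrogenase of the tricarboxylic acid cycle, complex III passes electrons from ubiquinol to cytochrome c, and complex IV reduces oxygen. Complex V, the ATP synthase, lets protons flow back and makes ATP. All but complex II mix subunits encoded in the nucleus with subunits encoded by mitochondrial DNA, and several complex IV subunits and the c subunit of complex V exist as isoforms from separate genes, some of them restricted to muscle, lung, testis or other tissues. Nuclear respiratory factor 1 (NRF1), the ETS factor GABPA and YY1 are known regulators of many of these genes.

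The 4 members on chromosome 4 were among the 10 members that varied most between libraries. Promoter stretches are shown for 3 of them, without Sdhb. They are the 120 bases directly upstream of the RefSeq transcript start of Ndufb6 (chr4:40279422-40279541), Uqcrh (chr4:116075071-116075190) and Ndufs5 (chr4:123718187-123718306), all on the minus strand of GRCm38.p6. They are written 5′ to 3′ in lower case, with the match to a searched motif in capitals.
Ndufb6: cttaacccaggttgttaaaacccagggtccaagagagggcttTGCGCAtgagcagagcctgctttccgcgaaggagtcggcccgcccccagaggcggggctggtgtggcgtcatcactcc
Uqcrh: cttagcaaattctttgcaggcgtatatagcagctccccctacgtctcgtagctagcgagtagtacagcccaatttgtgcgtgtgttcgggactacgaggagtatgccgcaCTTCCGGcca
Ndufs5: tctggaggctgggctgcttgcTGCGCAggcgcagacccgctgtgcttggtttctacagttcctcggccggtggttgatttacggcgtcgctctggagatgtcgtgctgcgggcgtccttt
The capitals mark the NRF1 core TGCGCA in Ndufb6 and Ndufs5, and the ETS core CCGGAAG, read on the opposite strand, in Uqcrh. Both strands of the 300-base RefSeq promoter window of 63 matched members were searched for these cores and for the YY1 motif AAGATGGC, which do not contain one another. The NRF1 core occurred in 17 members (27.0%), against 14.98% of 9084 tested genes with a promoter and 8.06% of all 27025 promoters. The ETS core occurred in 15 members (23.8%), against 18.9% of tested genes and 9.12% of all promoters. The YY1 motif occurred in 8 members (12.7%), against 4.92% of tested genes and 2.88% of all promoters. At least 1 of the motifs was found in 33 members (52.4%), against 33.7% of tested genes and 17.9% of all promoters. A match says only that these letters are in the window.

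The complexes differed in the typical level of their members, with ranges that overlapped. The median of the members' mean FPKM was 323 for complex V, 200 for complex III, 191 for complex IV, 110 for complex I and 96.1 for complex II. The highest was Atp5b, the catalytic beta subunit of the ATP synthase, with a mean of 702 FPKM. In complex IV the highest was Cox4i1, the common form of subunit IV, with a mean of 599 FPKM, and the lowest was Cox6a2, the muscle form of subunit VIa. Complex III ran from Uqcrfs1, the Rieske iron-sulphur protein, at 75.6 FPKM to Uqcrb at 259 FPKM. In complex I the 7 catalytic core subunits, which carry the flavin and iron-sulphur clusters, had a median of 72.1 FPKM, against 114 FPKM for the 28 accessory subunits. The accessory subunits held both ends of the range, with Ndufa3 at 248 FPKM and Ndufa11 at 17.8 FPKM. Complex II ran from Sdhb, its iron-sulphur subunit, at 62.5 FPKM to Sdhd, a membrane anchor, at 102 FPKM. Many of these transcripts are short, with a median length of 680 nt against 2170 nt for genes of 1 FPKM or more, and FPKM of transcripts under the usual fragment length depend on the length correction, so the order of levels is that of the deposited scale. Several members, among them Atp5g1, Atp5g2, Atp5g3 and Uqcrh, are known to have near-identical processed copies elsewhere in the genome, so their levels are uncertain to the extent that the authors' counting split such reads.

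Summed over complexes, the level of the chain stayed within a narrow range over the libraries. The 77 subunits together gave 14111, 14565, 14616 and 16661 FPKM in the knockout libraries, against 15585, 15264, 15072, 13319 and 14638 FPKM in the wild-type libraries. The groups overlapped, and the highest sum was that of 46295 knockout and the lowest that of 33373 wild type. These sums were 2.11 to 2.80% of all FPKM of a library. Complex I summed to 3808 ± 239 FPKM in knockout (SD, n = 4) and 3824 ± 306 FPKM in wild type (SD, n = 5). Complex II summed to 353 ± 30.5 FPKM in knockout and 359 ± 55.4 FPKM in wild type. Complex III summed to 1460 ± 143 FPKM in knockout and 1443 ± 106 FPKM in wild type. Complex IV summed to 3970 ± 490 FPKM in knockout and 3930 ± 230 FPKM in wild type. Complex V summed to 5397 ± 271 FPKM in knockout and 5221 ± 330 FPKM in wild type. On the deposited scale the mean sums of each of the 5 complexes differed between the states by less than the SD within either state. Line 46295 knockout had the highest sums of complexes III, IV and V, with 1671, 4683 and 5781 FPKM. In bulk cultures fewer cells of a type and less RNA per cell cannot be told apart.

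**Figure D1:**
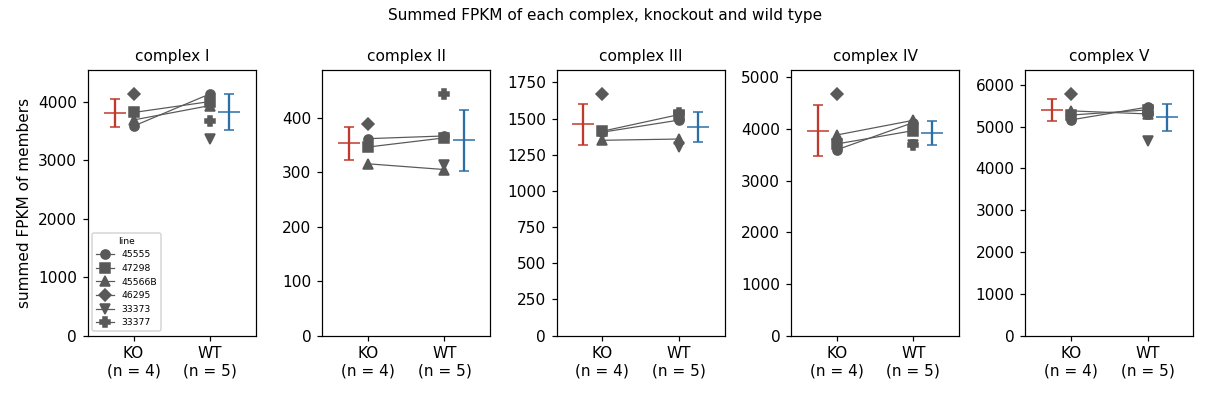
Summed FPKM of the members of complexes I to V (y axes from 0), with knockout libraries left and wild-type libraries right. Each symbol is a library, grey lines join the libraries of lines 45555, 47298 and 45566B, and coloured bars give the mean ± SD; the 2 groups overlap in every complex.

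The plot of summed FPKM shows the order of the 3 paired lines as well. In each pair complex I was lower in knockout, with 3586, 3818 and 3691 FPKM in knockout against 4137, 4006 and 3937 FPKM in wild type. Complex IV was also lower in each, with 3599, 3712 and 3886 FPKM in knockout against 4127, 3971 and 4170 FPKM in wild type. The complex IV sums include Ndufa4l2, at 5.27 FPKM in 45555 knockout and 212 FPKM in 45555 wild type. That gene reached the mean of 1 FPKM only through line 45555. The difference of the sums between the states was not tested. After the libraries were rescaled to an equal sum without the short noncoding RNA genes, complex I summed to 4019 ± 401 FPKM in knockout and 3686 ± 205 FPKM in wild type (SD, n = 4 and n = 5). Complex IV summed to 4186 ± 549.6 FPKM in knockout and 3797 ± 281 FPKM in wild type. Complex V summed to 5694 ± 484 FPKM in knockout and 5040 ± 329 FPKM in wild type, a gap larger than the SD of either state. In line 47298 the rescaled sum of complex I was higher in knockout, at 4358 FPKM against 3483 FPKM in wild type. The rescaled sum of complex IV in 47298 wild type, 3453 FPKM, lay below every knockout sum, of which 45555 had the lowest, 3473 FPKM. The differences between the states thus depended on the scaling.

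The members varied less between libraries than other genes did. The median SD of log2(FPKM + 1) over the 9 libraries was 0.25 for the 79 members, against 0.50 for all 12198 tested genes and 0.50 for the 1860 tested genes of 50 FPKM or more. An SD under 0.25 was found for 40 members (50.6%), against 13.7% of all tested genes, and an SD over 0.5 for 10 members (12.7%), against 50.4%. The steadiest member was Ndufs3, a core subunit of the part of complex I that reduces ubiquinone. It had 68.4, 78.4, 72.4 and 74.5 FPKM in the knockout libraries, against 76.3, 82.6, 74.0, 76.3 and 80.8 FPKM in the wild-type libraries. Its levels in the states overlapped, and its SD was 0.08. Atp5b was nearly as steady, with 750.3, 706, 701 and 709.9 FPKM in the knockout libraries, against 595, 727, 707, 647 and 772 FPKM in the wild-type libraries. The 10 most variable members were Ndufa4l2 (SD 2.58), Cox7a1 (1.42), Cox6a2 (1.24), Ndufv3 (0.85), Ndufs5 (0.78), Cox7a2l (0.61), Sdhb, Ndufb6 and Uqcrh (0.56 each) and Ndufa6 (0.52). They belong to complexes I to IV. Of these, 3 are isoforms restricted to other tissues or conditions, and 4 lie on chromosome 4. The SD is a description, and members of 1 complex are not independent of each other.

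**Figure D2:**
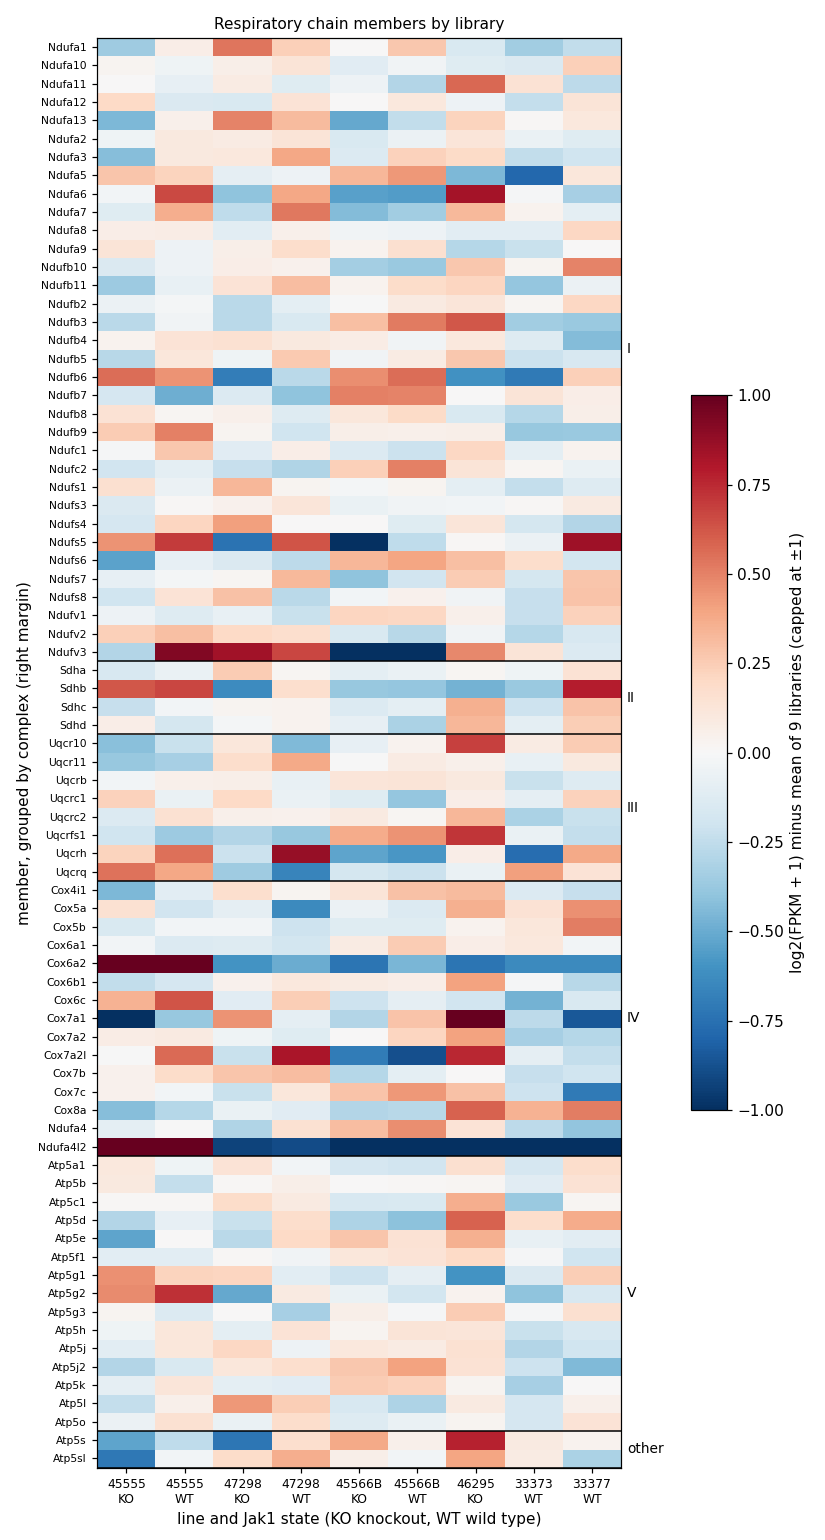
Deviation of log2(FPKM + 1) from the mean of the 9 libraries (colour, capped at ±1) for 78 of the members, in rows grouped by complex, and the 9 libraries in columns, with knockout left of wild type in each paired line. Most rows are pale, and the saturated cells lie in Ndufa4l2, Cox6a2, Cox7a1, Ndufv3 and Ndufs5.

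The heat map of the members shows that the deep colours sit in a small number of rows. It also shows that the knockout and wild-type libraries of line 45566B are alike in most rows, while 46295 knockout is above the mean in many, with a median deviation of 0.12 over all members, and 33373 wild type is below it, with a median of -0.14.

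The question put to the 3 paired lines was whether the subunits differ between the Jak1 states within a line. None of the 79 members passed in limma with the line as a block, at a Benjamini-Hochberg adjusted p under 0.05, and none of 12063 tested genes did (0%), although 6 genes, none of them a member, did without line 47298. At an unadjusted p under 0.05 there was 1 member, Ndufs5, against 406 genes (3.37% of all). On the deposited scale 26 members had a higher and 53 a lower mean in knockout, against 5863 and 6200 of all tested genes (48.6% higher). Once the libraries were rescaled without the short noncoding RNA genes, 58 members were higher and 21 lower, against 8290 and 3773 of all tested genes. No direction can thus be given for the family. That rescaling both left out these genes and set the libraries to an equal sum. An equal sum over all genes alone gave 53 higher and 26 lower. The median log2 difference of the members was -0.08 as deposited, beside -0.01 for all genes, 0.07 at an equal sum over all genes, beside 0.12 for all genes, and 0.11 after rescaling without the short noncoding RNA genes, beside 0.16 for all genes. Relative to all genes it was -0.07, -0.05 and -0.05 on these scales. By complex, 26 of 35 complex I members and 13 of 15 complex IV members were lower in knockout as deposited, and 9 and 6 after rescaling. Complex II had 2 higher and 2 lower, complex III 5 higher and 3 lower, and complex V 8 higher and 7 lower, as deposited. After rescaling without the short noncoding RNA genes these counts were 3 and 1, 7 and 1, and 13 and 2.

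A lower level in the knockout library of all 3 lines was found for 20 members, 25.3% of them, against 13.3% of all tested genes, and a higher level in all 3 for 8 members, against 14.3% of all. The members lower in all 3 lines were 11 of complex I, 4 of complex IV, 3 of complex V, and 1 each of complexes II and III. After rescaling, 2 members were lower in all 3 lines, against 5.8% of all genes, and 25 were higher, against 30.4% of all.

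Ndufs5, an accessory subunit of complex I that sits on its intermembrane-space side, had the smallest p. Its level was 35.5, 14.996, 7.94 and 26.0 FPKM in the knockout libraries, against 42.5, 40.3, 21.4, 24.7 and 47.0 FPKM in the wild-type libraries. It was lower in knockout in each pair, although 45555 and 46295 knockout each lay above 2 wild-type libraries. The paired log2 difference was -0.98 (SE 0.29, limma unadjusted p = 0.0261, adjusted p = 0.762). In the single lines the difference was -0.25 in 45555, -1.37 in 47298 and -1.32 in 45566B. The median difference of the other genes of chromosome 4, where Ndufs5 lies, was -0.01 in 45555, -0.41 in 47298 and 0.00 in 45566B. A median over a whole chromosome does not show changes in a part of it, and the number of copies was not analysed.

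Ndufa3, Ndufa7, Ndufa6 and Ndufb5, accessory subunits of complex I, followed among the members with lower means in knockout. Ndufa3 had 181, 262, 222 and 279 FPKM in the knockout libraries, against 261, 319, 286, 206 and 213 FPKM in the wild-type libraries. Its paired log2 difference was -0.39 (SE 0.17), with a lower level in knockout in each pair. Ndufa7 had 119, 109, 96.1 and 163 FPKM in the knockout libraries, against 168, 188, 102, 134 and 122 FPKM in the wild-type libraries. Its difference was -0.45 (SE 0.20). That of Ndufa6 was -0.49 (SE 0.23), with lower levels in knockout in 2 of 3 lines, and that of Ndufb5 was -0.27 (SE 0.15). All 4 had a limma adjusted p of 0.762. After rescaling without the short noncoding RNA genes the differences of Ndufa3, Ndufa7, Ndufa6 and Ndufb5 were -0.19, -0.25, -0.29 and -0.07, and that of Ndufs5 was -0.79. In 46295 knockout, which has no wild-type partner, they stood at 279, 163, 232 and 88.5 FPKM, each the highest of the knockout libraries.

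Among the members with higher means in knockout, Uqcrc1, Cox5a, Ndufb7, Ndufa11 and Uqcrq had the smallest p. Uqcrc1, a core protein of complex III, had 128, 126, 100.1 and 114 FPKM in the knockout libraries, against 104, 104, 83.3, 102 and 128 FPKM in the wild-type libraries. It differed by a similar amount in each pair, with log2 differences of 0.30, 0.27 and 0.26, and its paired difference was 0.28 (SE 0.15, limma adjusted p = 0.762). Cox5a, a complex IV subunit that faces the matrix, had 257, 216, 221 and 296 FPKM in the knockout libraries, against 202, 148, 209.9, 255 and 318 FPKM in the wild-type libraries, with a paired log2 difference of 0.32 (SE 0.18). Ndufb7, Ndufa11 and Uqcrq had paired log2 differences of 0.19, 0.17 and 0.17 (SE 0.17, 0.15 and 0.16). After the same rescaling the differences of Uqcrc1, Cox5a, Ndufb7, Ndufa11 and Uqcrq were 0.48, 0.52, 0.39, 0.36 and 0.37. None of them passed.

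**Figure D3:**
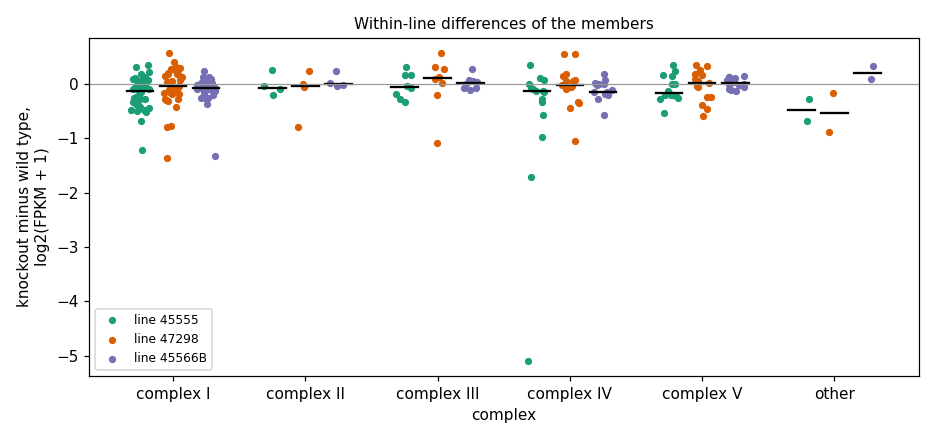
Knockout minus wild type on the log2(FPKM + 1) scale (y axis) for each member in lines 45555, 47298 and 45566B, grouped by complex (x axis). Points are members and black bars medians; most points lie within 1 of zero and the lowest point is Ndufa4l2 in line 45555 (-5.09).

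The 3 lines did not contribute alike, as the plot of within-line differences shows. The median member difference was -0.14 in 45555, -0.03 in 47298 and -0.03 in 45566B. Members past 1 on the log2 scale numbered 3 in 45555 (Ndufa4l2, Cox7a1 and Ndufv3, against 9.88% of all genes), 3 in 47298 (Ndufs5, Uqcrh and Cox7a2l, against 19.5% of all genes) and 1 in 45566B (Ndufs5, against 3.03% of all genes). All 7 of these differences were lower in knockout. Ndufa4l2 reached the mean of 1 FPKM only through line 45555, so its place among them is a description. The 2 libraries of line 47298 also differed in cell type markers. The fibroblast markers summed to 354 FPKM in 47298 knockout against 5592 FPKM in 47298 wild type, the adipocyte markers to 53.6 FPKM in knockout against 1293 FPKM in wild type, and the epithelial markers to 408 FPKM in knockout against 97.9 FPKM in wild type. The higher epithelial sum in 47298 knockout lay in Krt8 and Krt18. Krt19 was lower there, at 0.31 FPKM against 5.97 FPKM in 47298 wild type. Epcam, Cdh1 and Cldn4 were under 1 FPKM in both libraries. The part of these markers in the member differences was not tested. Ndufv3, a complex I accessory subunit of the NADH-binding module, had 77.9, 172, 38.3 and 134 FPKM in the knockout libraries, against 183, 153, 37.7, 105 and 87.2 FPKM in the wild-type libraries. Its difference was -1.22 in 45555, 0.17 in 47298 and 0.02 in 45566B. Cox7a2l, which joins complexes III and IV into supercomplexes, had 147, 126, 89.9 and 249 FPKM in the knockout libraries, against 218, 260.3, 79.4, 138 and 125 FPKM in the wild-type libraries. Its difference was -0.57 in 45555, -1.05 in 47298 and 0.18 in 45566B.

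Over all 9 libraries, which include the 6 paired ones, no member and no gene of 12198 passed in limma (0% of all), 1 gene and no member passed when 45555 knockout, 45566B knockout or 45555 wild type was left out, and at an unadjusted p under 0.05 there were no members and 144 genes (1.18% of all). No member had all knockout libraries above all wild-type libraries (0.139% of all genes did) or all below (0.303% did). As deposited, 42 members were higher and 37 lower in knockout with a median log2 difference of 0.00, beside 0.00 for all genes. Of all genes, 6127 were higher and 6071 lower. At an equal sum over all genes 60 were higher and 19 lower, with a median of 0.08 beside 0.07 for all genes. After rescaling without the short noncoding RNA genes 72 were higher and 7 lower, with a median of 0.13 beside 0.11 for all genes. Of all genes, 8043 were higher and 4155 lower on that scale. Ndufs5 again had the smallest p, with a log2 difference of -0.84 (SE 0.43). Sdhb, at -0.39 (SE 0.35), Ndufa7, at -0.22 (SE 0.23), Atp5o, a peripheral stalk subunit of complex V, at -0.10 (SE 0.14), and Ndufs3, at -0.09 (SE 0.12), followed among those with lower means, and the last 2 were on the higher side after rescaling. Ndufa11, at 0.27 (SE 0.18), Cox7a2, at 0.20 (SE 0.18), Atp5c1, the gamma subunit of the central stalk, at 0.18 (SE 0.17), Ndufs1, the largest core subunit of complex I, at 0.17 (SE 0.15), and Ndufb4, at 0.17 (SE 0.16), led those with higher means. Leaving out 1 library at a time moved Ndufs5 between -1.14 and -0.46, Sdhb between -0.67 and -0.23, Ndufa7 between -0.37 and -0.11, Atp5o between -0.15 and -0.07, Ndufs3 between -0.12 and -0.05, Ndufa11 between 0.13 and 0.34, Cox7a2 between 0.10 and 0.27, Atp5c1 between 0.09 and 0.26, Ndufs1 between 0.09 and 0.23, and Ndufb4 between 0.08 and 0.22. None of them passed.

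More genes passed for the line than for the Jak1 state. In the 6 paired libraries the limma test of the line term called 1694 of 12063 genes (14%), and 4833 genes (40.1%) had an unadjusted p under 0.05. Of the 79 members, 1 was called and 10 had an unadjusted p under 0.05. The members' share was thus below that of all genes in both counts. The called member was Cox6a2, which reached the mean of 1 FPKM needed to be tested only through line 45555, so its call is a description and no finding about the members. It had 4.23, 0.10, 0 and 0 FPKM in the knockout libraries, against 9.33, 0.18, 0.21, 0.07 and 0.07 FPKM in the wild-type libraries. It was near 0 outside line 45555, and the range between the line means was 2.74 on the log2 scale (limma adjusted p = 0.0300). Without line 45566B its adjusted p was 0.341. Over all genes, the calls numbered 0 of 11704 without 45566B, 276 of 12008 without 45555 and 3515 of 11840 without 47298. Of the members, 0 of 79, 0 of 77 and 5 of 79 were among them. The next were Ndufv3, with a range of 2.07 (adjusted p = 0.0693), Ndufb6, with 1.00 (0.0726), Uqcrq, with 0.97 (0.0748), and Ndufb7, with 0.83 (0.0873), none of which passed in limma. Without line 47298 the range was 0.01 for Ndufb6, and without line 45566B it was 0.06 for Ndufb7 and 0.44 for Ndufv3. Without line 45555 it was 0.31 for Uqcrq. Among the paired lines Ndufv3 was lowest in 45566B in both states. Uqcrq, a small subunit of complex III, had 232, 124, 141 and 152 FPKM in the knockout libraries, against 208, 101, 137, 212 and 175 FPKM in the wild-type libraries, so among the paired lines 45555 was highest and 47298 lowest in both states.

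The members' positions set some of these values beside those of whole chromosomes. A unique position was found for 77 members in the GENCODE annotation of GRCm38. The median deviation from the mean of 9 libraries over all other tested genes of a chromosome ranged most between libraries on chromosomes 12 (by 1.71 on the log2 scale), 4 (0.78), 15 (0.59) and 10 (0.40). These held 1, 4, 4 and 6 members. The 4 members on chromosome 4 were Ndufb6 (40270591 to 40279421, minus strand), Uqcrh (116066965 to 116075071, minus), Ndufs5 (123712710 to 123718202, minus) and Sdhb (140961203 to 140979193, plus). Jak1 lies on the same chromosome, at 101152367 to 101265282 on the minus strand.

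On chromosome 4 the median deviation of the 702 other tested genes was 0.41, -0.34, -0.20 and -0.33 in the knockout libraries, against 0.40, 0.09, -0.16, -0.37 and 0.37 in the wild-type libraries. The median deviation of the 4 members was 0.50, -0.66, -0.45 and -0.23 in the knockout libraries, against 0.61, 0.40, -0.32, -0.54 and 0.58 in the wild-type libraries. The medians of the members and of the other genes thus had the same sign in each of the 9 libraries, but single members did not all follow. Of the 4 members, 2 stood above their own mean in 46295 knockout and 1 in each 45566B library, where the other genes were low. In 47298 wild type, where the other genes were high, 3 did. Sdhb had 90.0, 37.4, 44.5 and 41.7 FPKM in the knockout libraries, against 93.2, 65.6, 44.2, 44.7 and 101 FPKM in the wild-type libraries. Uqcrh, the hinge protein of complex III, had 278, 206, 166 and 249.9 FPKM in the knockout libraries, against 349.8, 438, 159, 140.3 and 310.0 FPKM in the wild-type libraries. Ndufb6, a membrane-arm subunit of complex I, had 155, 64.7, 146 and 68.7 FPKM in the knockout libraries, against 144, 87.1, 156, 64.2 and 125 FPKM in the wild-type libraries. Its high level in line 45566B went against the other genes of its chromosome.

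**Figure D4:**
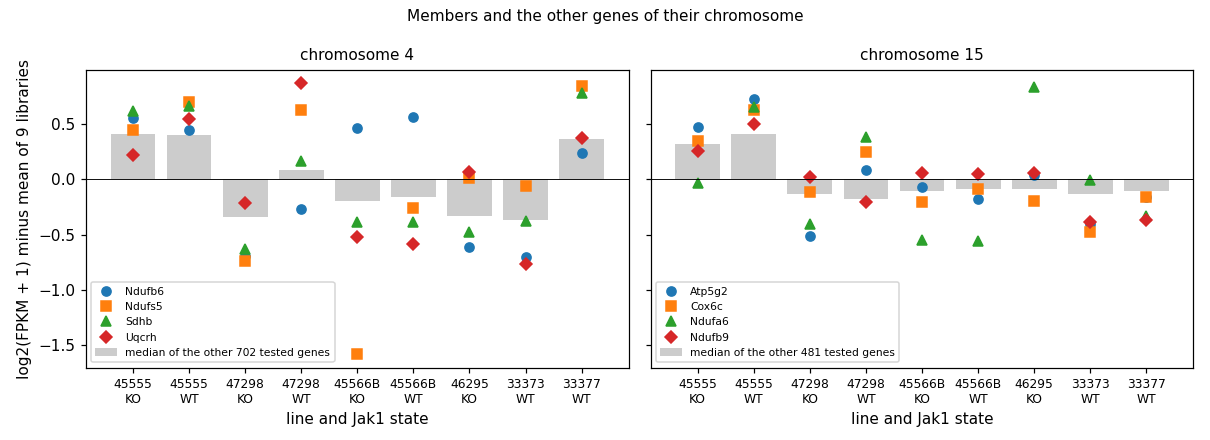
Deviation of log2(FPKM + 1) from the mean of 9 libraries (y axis) by library, knockout left of wild type in each paired line (x axis), for the members on chromosome 4 (left) and chromosome 15 (right). Grey bars give the median of the other tested genes of that chromosome, which on chromosome 4 is 0.41 in 45555 knockout and -0.34 in 47298 knockout.

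Within the pairs the members and the other genes of a chromosome differed to varying extents. In line 47298 the median difference between knockout and wild type was -0.41 over the other genes of chromosome 4 and -0.94 over its 4 members, all 4 lower in knockout. In lines 45555 and 45566B the other genes of that chromosome differed by -0.01 and 0.00 in the median, and its members by -0.15 and -0.04. On chromosome 15 the median difference of the members in 47298 was -0.48 while that of the other genes was 0.00. In 45555 these were -0.27 and -0.02, and in 45566B 0.01 and 0.00. In 47298 the other genes of chromosome 10 also differed, by -0.28, with 6 of 6 members lower (median -0.24), and those of chromosome 12 by -0.55, with its only member, Atp5s, at -0.89. Jak1 itself was 27.5 FPKM in 47298 knockout against 63.1 FPKM in 47298 wild type. After each gene was centred on the median of its chromosome in each library, the SD over 9 libraries was 0.24 for Sdhb, in place of 0.56 as deposited. It was 0.40 for Uqcrh and 0.42 for Ndufb6, in place of 0.56 for both, and 0.60 for Ndufs5, in place of 0.78. On chromosomes 10 and 12 centring gave lower values for Ndufs7 (0.22 in place of 0.25) and Uqcr11 (0.20 in place of 0.24). It gave higher values for Atp5b (0.15 in place of 0.11), Atp5s (0.49 in place of 0.45), Ndufa12 (0.16 in place of 0.15), Atp5d (0.35 in place of 0.34) and Ndufa4l2 (2.60 in place of 2.58). The number of copies of these chromosomes in the lines was not analysed here, and its part in these values was not tested.

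Chromosome 15 carried Atp5g2, Cox6c, Ndufa6 and Ndufb9. Its 481 other tested genes had a median deviation of 0.32 in 45555 knockout and 0.41 in 45555 wild type, and between -0.18 and -0.09 in the other 7 libraries. The 4 members had a median of 0.30, -0.26, -0.13 and 0.05 in the knockout libraries, against 0.64, 0.17, -0.13, -0.39 and -0.25 in the wild-type libraries. In 46295 knockout and 47298 wild type the members thus stood above their mean and the other genes below theirs, at -0.09 in 46295 knockout and -0.18 in 47298 wild type. Cox6c, a complex IV subunit, had 484, 352, 329.8 and 333 FPKM in the knockout libraries, against 587, 452, 358, 274 and 341 FPKM in the wild-type libraries. Line 45555 was the highest of its state in both. Centring on the chromosome gave an SD of 0.21 for Cox6c, in place of 0.34, of 0.23 for Atp5g2, in place of 0.39, and of 0.17 for Ndufb9, in place of 0.29. Ndufa6 kept an SD of 0.49, beside 0.52. It had 127, 97.4, 88.4 and 232 FPKM in the knockout libraries, against 205, 169.7, 87.5, 129 and 103 FPKM in the wild-type libraries, and its highest library was 46295 knockout.

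The isoforms with restricted expression in other settings gave the largest differences between single libraries. For Ndufa4l2 and Cox6a2, which reached the mean of 1 FPKM only through line 45555, this follows from the filter and is a description. Ndufa4l2, a paralogue of the complex IV subunit Ndufa4 that is known to be induced by hypoxia and is also found in mural cells of vessels, had 5.27, 0.24, 0 and 0 FPKM in the knockout libraries, against 212, 0.26, 0, 0 and 0.04 FPKM in the wild-type libraries. It was abundant in 45555 wild type alone, low in 45555 knockout, and listed at 0 or close to it in the other 7. Its paralogue Ndufa4 had 495, 430.3, 656 and 583 FPKM in the knockout libraries, against 530.3, 590.2, 733, 442 and 403 FPKM in the wild-type libraries. Its SD of log2(FPKM + 1) was 0.29, and 45555 wild type did not stand out. On the deposited scale Ndufa4 was lower in knockout in each pair. The paired log2 difference of Ndufa4l2 was -1.71 (SE 1.19, limma adjusted p = 0.762) and rests on line 45555. In that line the summed level of the 6 fibroblast markers was 3971 FPKM in knockout against 5235 FPKM in wild type, so that it was high in both states. In the other lines the same sum was 354 (47298), 1.30 (45566B) and 2.99 FPKM (46295) for knockout, against 5592 (47298), 1.06 (45566B), 197 (33373) and 397 FPKM (33377) for wild type. Line 47298 wild type, with the highest sum, had 0.26 FPKM of Ndufa4l2. The 5 adipocyte markers summed to 389, 53.6, 1.15 and 2.81 FPKM in the knockout libraries, against 547, 1293, 1.79, 35.6 and 44.1 FPKM in the wild-type libraries. In line 45555 nearly all of this was Fabp4 (311 FPKM in knockout, 331 FPKM in wild type) and Lpl (77.5 and 215 FPKM). There Adipoq was listed at 0 in both states, and Plin1 and Cidec reached at most 0.09 and 0.05 FPKM. Only 47298 wild type had all 5 at 1 FPKM or more. The 3 endothelial markers summed to at most 4.07 FPKM in any library. The part of these markers in the level of Ndufa4l2 was not tested.

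Cox7a1, the heart and skeletal muscle form of subunit VIIa, had 0.97, 10.5, 5.89 and 78.8 FPKM in the knockout libraries, against 5.49, 6.92, 9.29, 6.03 and 3.68 FPKM in the wild-type libraries. The level in 46295 knockout was far above the other 8. Its widely expressed counterpart Cox7a2 had 179, 165, 169.7 and 225 FPKM in the knockout libraries, against 180.2, 156, 197, 135 and 139 FPKM in the wild-type libraries. Cox7a1 made up 26.0% of the sum of both in 46295 knockout and between 0.54 and 6.003% in the other 8. Of the 6 striated muscle markers, 2 were above 1 FPKM in 46295 knockout, Tnnt3 with 86.9 FPKM and Mb, which encodes myoglobin, with 15.7 FPKM. The other 4 (Acta1, Ckm, Myh1 and Actn3) were listed at 0 there. The sum of these 6 markers was 0.72, 0.28, 0.85 and 103 FPKM in the knockout libraries, against 1.40, 1.16, 3.29, 0.82 and 0.68 FPKM in the wild-type libraries. The macrophage-associated gene Cd68 was also highest in that library, with 106 FPKM, while Ptprc, the common leukocyte marker, was listed at 0. The part of these genes in the level of Cox7a1 was not tested.

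**Figure D5:**
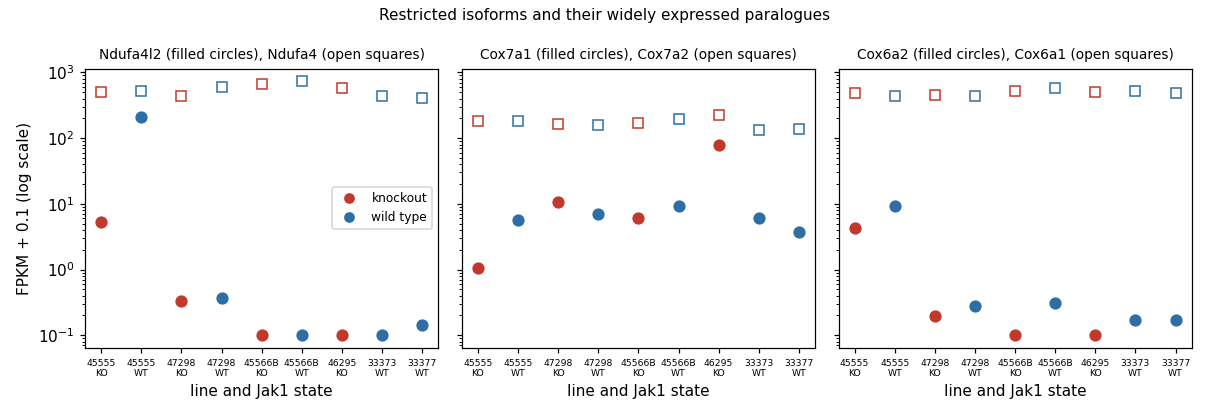
FPKM + 0.1 on a log axis for 3 restricted isoforms (filled circles) and their widely expressed paralogues (open squares) by library, with knockout (red) left of wild type (blue) in each paired line. Ndufa4l2 reaches 212 FPKM in 45555 wild type, Cox7a1 78.8 FPKM in 46295 knockout and Cox6a2 9.33 FPKM in 45555 wild type, while the paralogues vary less on this axis.

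Cox6a2, the heart and muscle form of subunit VIa, was above 1 FPKM in both libraries of line 45555 only, as the plot of restricted isoforms shows. Its counterpart Cox6a1 had 479, 446, 518 and 512 FPKM in the knockout libraries, against 444, 430.4, 583, 526 and 478 FPKM in the wild-type libraries. The lung form Cox4i2, the testis form Cox6b2 and the muscle form Cox8b stayed below the threshold, against mean levels of 599, 498 and 378 FPKM for their counterparts Cox4i1, Cox6b1 and Cox8a. Cox6b2 reached 3.42 FPKM in 47298 wild type, against 0.42 FPKM in 47298 knockout. The striated muscle markers summed to 0.72 FPKM in 45555 knockout and 1.40 FPKM in 45555 wild type.

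The genes Atp5g1, Atp5g2 and Atp5g3 encode the same mature c subunit of the ATP synthase ring with different import sequences. Their summed level was 1204, 904, 976 and 1044 FPKM in the knockout libraries, against 1226, 909, 936, 884 and 1036 FPKM in the wild-type libraries. The sum stayed between 884 and 1226 FPKM, whereas its make-up differed between libraries. Atp5g2 took 43.7, 29.4, 37.2 and 37.3% of it in the knockout libraries, against 51.2, 44.3, 35.7, 32.4 and 32.7% in the wild-type libraries. Atp5g1 took between 9.2 and 18.7%, lowest in 46295 knockout and highest in 47298 knockout, and Atp5g3 between 34.8 and 53.5%. Atp5g2 lies on chromosome 15, and its largest share was in 45555 wild type, where the other genes of that chromosome were high as well. Reads from these 3 genes and their processed copies can be confused, so the shares are uncertain to that extent.

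Other genes of the pathway gave no call either. Of 46 assembly factors, 44 were tested in the paired lines, 22 with higher and 22 with lower means in knockout (median log2 difference 0.00), and over all 9 libraries 26 of 45 were higher and 19 lower. Of the regulators of mitochondrial biogenesis and mitochondrial DNA expression, 20 of 21 listed were measured and 18 tested in the paired lines, 11 higher and 7 lower (median 0.11), with 13 higher and 6 lower over all 9. The 20 genes of the tricarboxylic acid cycle and electron carriers had 11 higher and 9 lower in the paired lines (median 0.04), and 13 higher and 7 lower over all 9. Of all tested genes, 48.6% were higher in knockout in the paired lines and 50.2% over all 9 libraries. No gene of these 3 lists passed in limma or had an unadjusted p under 0.05 in either comparison. The counts and medians of these lists are on the deposited scale. Those after rescaling are not given here, and directions can depend on the scaling.

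The genes with the smallest p in these lists were described by the same rule. Idh3a, the catalytic subunit of the NAD-dependent isocitrate dehydrogenase that supplies NADH to complex I, had 58.7, 62.3, 58.3 and 75.1 FPKM in the knockout libraries, against 29.6, 32.4, 58.4, 60.9 and 50.8 FPKM in the wild-type libraries. It was higher in knockout in 45555 and 47298 and level in 45566B, and its paired log2 difference was 0.63 (SE 0.26, limma adjusted p = 0.762). Cycs, the cytochrome c that links complexes III and IV, had 70.4, 32.6, 60.7 and 34.0 FPKM in the knockout libraries, against 30.1, 21.8, 71.9, 43.0 and 54.4 FPKM in the wild-type libraries, with a paired difference of 0.51 (SE 0.32). Surf1, an assembly factor of complex IV, had 21.9, 32.5, 19.3 and 36.5 FPKM in the knockout libraries, against 36.5, 35.9, 24.3, 23.8 and 18.5 FPKM in the wild-type libraries. It was lower in knockout in each pair, with a paired difference of -0.39 (SE 0.18). Cox16, another assembly factor of complex IV, had 20.7, 3.26, 20.05 and 17.4 FPKM in the knockout libraries, against 24.8, 26.1, 26.4, 10.4 and 17.8 FPKM in the wild-type libraries. Its low value in 47298 knockout falls in the library in which the other genes of chromosome 12, where Cox16 lies, were at their lowest median, -0.91. Slirp, a regulator of mitochondrial messenger RNA on the same chromosome, had 58.9 FPKM in 47298 knockout against 112 FPKM in 47298 wild type. Its partner Lrpprc had a paired difference of 0.25 (SE 0.18), and over all 9 libraries Atpaf2, Cox20, Tfb2m, Polg and Ogdh had differences of 0.21, 0.31, 0.20, 0.13 and 0.32. None of these passed, and the differences are on the deposited scale only.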

How the data were processed

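RNA sequencing of 9 libraries was used, 1 for each line and Jak1 state. The authors deposited FPKM for each gene symbol. The submitters' processing notes list Cuffnorm, Cufflinks 2.2, TopHat2 2.1 and cutadapt, with mm10 as the build, without their order or role. The annotation, scaling option, treatment of multiply mapped reads and strandedness were not given in the sources used here. A gene and its antisense or overlapping neighbour therefore cannot be told apart. FPKM hold no counts, so depth is unknown and no count test was used. Total RNA was reverse transcribed with oligo-dT primers, per the labels' protocols. There were 2 tables, of which the smaller held 4 of the libraries with identical values, so the larger was read. Its columns for lines 33373 and 33377 lack the name suffix of the others, and alternatives without them were run. In all, 4 rows with a repeated name were left out.

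For each comparison, genes averaging 1 FPKM or more over its libraries were tested on log2(FPKM + 1) with limma 3.58.1 (R 4.3.3), two-sided, letting the variance depend on the mean, and p was adjusted by Benjamini-Hochberg over all tested genes and called at 0.05. A log2 difference on this scale understates the change of low genes. The paired comparison (lines 45555, 47298 and 45566B, 12063 genes) had the line as a block, the comparison of all 9 libraries (12198 genes) had none, and the line term of the paired fit was tested with its F test. The labels pair the libraries by line, and the 2 libraries of a line deviated together from their state means over genes, with correlations of 0.70 for 45555, 0.40 for 47298 and 0.80 for 45566B. The tests were checked on simulated data.

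The members and the lists were chosen with earlier results of these data known. The genes described in single values are Jak1, the highest and lowest member of each complex, the 5 higher and 5 lower members with the smallest p in each comparison of states, the 5 with the smallest p between lines, the isoform sets, and 2 genes of each other list. Ndufs3 and Atp5b as steady genes, the 10 most variable members, the members past 1 in a single line, and the members on chromosomes 4 and 15 were chosen after their values were seen. Alternatives were another pseudocount (0.1), no filter, quantile normalization, rescaling without 1286 short noncoding RNA genes, each library or line left out, lines left out in pairs, and the fits with and without the line block. Centring on the chromosome median and scaling to an equal sum over all genes were chosen after seeing the data. Positions are from the GENCODE annotation of GRCm38, promoters from RefSeq for GRCm38.p6, and 63 of 79 members had a promoter entry. The values of 1 member are not reported singly here.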

Additional observations from a re-analysis of the deposited data

Results flagged for a closer look

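Dixon's test was applied to the 35 members that the naming rule picked and to the 5 complex sums, within the 4 knockout libraries and within the 5 wild-type libraries (80 groups). It singled out 7 values that stood far from the rest of their state, where chance gives about 1 in 20 groups. Of these, 4 belong to Ndufa4l2 and Cox6a2, which reached the mean of 1 FPKM only through line 45555, so the count is not set against that rate. Ndufa4l2 was high in line 45555 in both states, with 5.27 FPKM against at most 0.24 FPKM in the other knockout libraries, and with 212 FPKM against at most 0.26 FPKM in the other wild-type libraries. Cox6a2 was likewise high in line 45555, with 4.23 FPKM in knockout and 9.33 FPKM in wild type. Cox7a1 had 78.8 FPKM in 46295 knockout. Sdhb had 90.0 FPKM in 45555 knockout, in which the other genes of chromosome 4 were also above their mean. The summed FPKM of complex V was 4644 in 33373 wild type, below the other wild-type libraries.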

How the results depend on the processing

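In the paired comparison and over all 9 libraries no member passed under any alternative, among them the paired fit with no replicate block (0 genes called, 58 at an unadjusted p under 0.05) and the fit of all 9 libraries with the line as a replicate block (0 called, member median -0.05). Rescaling without short noncoding RNA genes moved the member median to 0.11 in the paired lines and 0.13 over all 9 libraries, with a shift of all genes by 0.17 and 0.11, and put Atp5o (0.0245) and Ndufs3 (0.0370) over all 9 libraries on the higher side. An equal sum over all genes alone moved the medians to 0.0692 and 0.0793. Without lines 45555 and 47298 the median over all 9 was 0.0938 and Ndufa7 stood at 0.0801, also on the higher side. With a pseudocount of 0.1 the line test called 2 of 79 members and 2332 of 12063 genes. Leaving out 1 line or library at a time gave 0 to 6 genes called in the paired lines (6 without 47298) and 0 to 1 over all 9 libraries. In the line test it gave 276 of 12008 genes without 45555, 3515 of 11840 without 47298 and 0 of 11704 without 45566B. Of the members, 0 of 77, 5 of 79 and 0 of 79 were among them. Each of these fits rests on fewer libraries, and why the counts changed was not tested. Of the values of single genes in the comparisons of states, 277 kept their direction and side of the threshold under alternatives. Between lines, where a range has no direction, it was 0.01 for Ndufb6 without 47298 and 0.06 for Ndufb7 without 45566B, and those that changed side were Cox6a2 between lines without 45566B (limma adjusted p = 0.341) and Ndufv3 between lines without 47298 (range 1.63, adjusted p = 0.0456). Depth is unknown, and with 1 library for each line and state changes, large ones included, may go undetected.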
